A study of Gallus gallus with 53 samples.

Results

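A group of 13 probe sets of the chicken array went up and then down in wild type DT40 cells after strong crosslinking of the B cell receptor (BCR). A probe set is a group of array probes read as 1 row of values. The 13 members were chosen from 26866 rows by their own values in 1 course, that of wild type cells given 10 μg/ml anti-IgM. A row was kept when its mean log2 intensity over all 53 columns was above 1.05, when its 15 and 30 min values averaged at least 0.25 log2 units above the unstimulated wild type column, when its 60 and 90 min values averaged at least 0.35 below that column, and when neither late value was 1 log2 unit or more below it. Of the tested rows, 2299 met the early threshold, 3601 met the late threshold and 16 met both. The last condition removed 3 of those 16.

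The cells were DT40, a B cell line of the chicken, and the table has 1 column of values for each condition and time. IKKβSA cells, in which activation loop serines of IKKβ are replaced by alanine, were stimulated with anti-IgM at 10 μg/ml or with CD40 ligand (CD40L) at 6 μg/ml. WT + Inh cells are wild type cells given the MEK inhibitor U0126 for 30 min before the same stimuli at the same doses. WT cells received anti-IgM at 0.1, 1 or 10 μg/ml, or CD40L at 1, 3 or 6 μg/ml, without the inhibitor. RNA was taken at 15, 30, 45, 60 and 90 min in each of the 10 courses, and each of the 3 cell conditions had 1 unstimulated column at 0 min. The inhibitor concentration is 5 μM in the methods and 5 mM in the sample labels, and the methods do not make clear whether IKKβSA cells were given it too. Each column combines 2 biological replicates, so no spread between replicates was at hand, and unstimulated cells were sampled at 0 min alone, which means that drift with time cannot be told apart from a response. Samples were bulk RNA, in which fewer cells of a type and less RNA per cell cannot be told apart.

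Crosslinking of the BCR by anti-IgM starts a cascade that activates the kinases ERK, through MEK, and IKK, which releases the transcription factor NF-κB. CD40, the receptor for a ligand carried by helper T cells, activates IKK and NF-κB through adaptor proteins of the TRAF family. The authors also report transient ERK activity after CD40 stimulation. Early response transcripts of lymphocytes can appear within minutes of such a signal and are often short-lived, so that transient profiles are a known feature of this kind of stimulation. The row IDs of the table do not pair with its values, so none of the 13 rows can be given a gene, a function or a sequence, and the cell type could not be checked against marker genes. The members are called B1 to B13, in the order of their change from the early to the late times in the course that chose them.

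In that course the 13 members traced the shape by construction, and its values are a description. B1, the brightest member, had an intensity of 46.8 at 0 min and of 52.6, 68.8, 47.0, 32.1 and 29.1 at 15, 30, 45, 60 and 90 min. B6 had 18.3 at 0 min and then 22.6, 23.5, 18.4, 13.03 and 12.6. The median change of the members against 0 min was 0.29, 0.36, 0.01, -0.42 and -0.57 log2 units at the 5 times. The thresholds on the shape did not use the 45 min column. They do place any value near the 0 min level between the early and late averages. All 13 members had a 45 min value between their early and late values, 8 of them above the 0 min level. The range was -0.19 to 0.26 log2 units. The level at 30 min was above that at 15 min in 8 members, and the level at 90 min was below that at 60 min in 12. The change from early to late ran between -0.98 in B1 and -0.64 in B13, with a median of -0.83 log2 units, that is 1.97-fold to 1.56-fold lower at the late times.

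**Figure D1:**
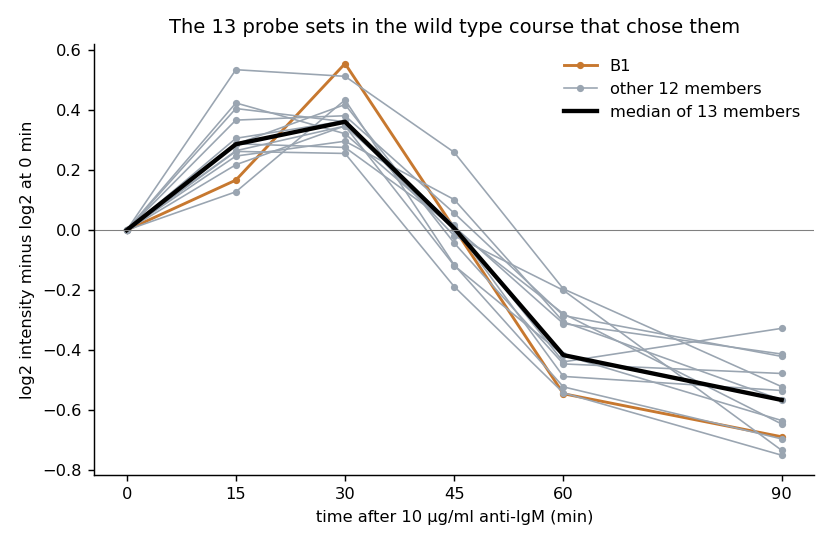
Log2 intensity minus log2 intensity at 0 min (vertical axis) against time (horizontal axis, min) in WT cells given 10 μg/ml anti-IgM, with 1 grey or orange line for each of the 13 members and a black line for their median. The median reached 0.36 at 30 min, was near 0 at 45 min and reached -0.57 at 90 min; these values chose the members.

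The members lay close to the thresholds, and most were dim. Just inside the early threshold were B2, at 0.26, and B11, at 0.27 log2 units, together with a row that the last condition removed, at 0.25. The nearest rows outside had early changes of 0.248, 0.244 and 0.242. Just inside the late threshold were B10, B4 and B13, at -0.353, -0.359 and -0.362, and just outside it were rows at -0.346, -0.345 and -0.341. The geometric mean intensity over the columns was 47.9 in B1, 23.6 in B2, 18.7 in B3, 16.5 in B6 and 16.5 in B7, and between 3.58 and 5.29 in the other 8 members. Column medians over all rows of the table lay between 2.74 and 2.95, the lowest in unstimulated WT cells, which is the column the rule subtracted. The median member had about the level of the median tested row, 5.06 against 5.08. Before stimulation, the members differed between cell conditions by a median of -0.04 log2 units for IKKβSA minus WT (range -0.51 to 0.19) and of -0.08 for WT + Inh minus WT (range -0.52 to 0.25).

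Whether the shape recurs was then asked in the 9 courses that the rule did not use. B1 alone met both thresholds in WT cells given 1 μg/ml anti-IgM, where 10 of all tested rows did (0.0372%, against 0.0596% in the course of the rule), and no member met both in any of the other 8 courses. After anti-IgM, 0.0186% of all rows had that shape in IKKβSA, 0.0112% in WT + Inh and 0.0521% in WT cells at 0.1 μg/ml. After CD40L the share was 0.00372% in IKKβSA cells, 0.0149% in WT + Inh cells, and 0.00%, 0.0112% and 0.00744% in WT cells at 1, 3 and 6 μg/ml. With signs alone, above 0 min early and below it late, the pattern was seen in 2 members in IKKβSA and 5 in WT + Inh cells given anti-IgM, against 16.3% and 15.9% of all rows. It was seen in 7 members at 0.1 and in 9 at 1 μg/ml anti-IgM in WT cells, against 8.41% and 9.40% of all rows. These WT counts share the 0 min column with the rule and are a description. After CD40L these signs were seen in 3 members in IKKβSA and 2 in WT + Inh cells, against 11.96% and 11.92% of all rows, and in 1, 3 and 3 in WT cells at 1, 3 and 6 μg/ml, against 10.5%, 12.2% and 8.22%.

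The fall from the early to the late times uses neither the 0 min column nor the columns of the rule, and it was tested with limma on the other 48 columns. Each course contributes its 15 and 30 min columns against its 60 and 90 min columns, and the difference between the paired times within a phase served as the error (18 residual degrees of freedom), so real change within a phase adds to it. A call is an adjusted p under 0.05, two-sided, with Benjamini-Hochberg adjustment over all 26866 rows. The median standard error of a fall in 1 course was 0.15 log2 units for the members. Their median residual SD was 0.16, against 0.11 for all tested rows. The fit also drew the error of each row toward the trend of all rows over intensity. The SE of a fall in 1 course was thus 0.15 in B1, whose residual SD was 0.18, and 0.11 in B5, whose residual SD was 0.09.

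In WT cells given the lower anti-IgM doses the members were mostly lower at the late times. At 0.1 μg/ml all 13 members had late values below the early ones (46.9% of all rows did), with a median of -0.23 log2 units against 0.01 for all rows. In that course 5 members were called lower (B1, B2, B6, B7 and B9), where 5.59% of all rows were. At 1 μg/ml 12 of 13 members had late values below the early ones (47.1% of all rows), with a median of -0.22 against 0.01, and 4 were called lower (B1, B6, B9 and B11), where 3.97% of all rows were. Late values were below early ones at both doses in 12 members, and in 25.5% of all rows. The calls rested in part on single times. At 0.1 μg/ml 3 members stayed called without the 30 min columns (B1, B6 and B9) and 1 without the 90 min columns (B1), where 2.20% and 1.17% of all rows were called. At 1 μg/ml 2 stayed called without the 60 min columns (B1 and B6) and 2 without the 90 min columns (B1 and B9), where 2.45% and 0.975% of all rows were called.

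B1 carried the clearest repeat of the fall. Its intensity was 46.8 in the WT 0 min column, which the rule used too. Against that column its early change was 0.35 log2 units at 1 μg/ml anti-IgM. At 0.1 μg/ml the early change was 0.15, below the early threshold, so the full shape was not met there. At 0.1 μg/ml anti-IgM B1 had intensities of 48.2, 55.8, 38.3, 26.6 and 30.6 at 15, 30, 45, 60 and 90 min. At 1 μg/ml it had 58.2, 61.2, 39.7, 28.8 and 35.1. Both lower doses thus gave a high value at 30 min and the lowest at 60 min, and at each of them both late values lay below both early ones. The fall was 0.86 log2 units at 0.1 μg/ml (SE 0.15, adjusted p = 0.000508, limma) and 0.91 at 1 μg/ml (SE 0.15, adjusted p = 0.000171, limma). The difference between these doses, -0.05 log2 units (SE 0.22), was smaller than its error.

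B6 and B9 followed. B6 had 16.9, 22.03, 16.3, 12.002 and 10.6 at the 5 times after 0.1 μg/ml anti-IgM, and 21.1, 21.0, 14.9, 13.8 and 11.8 after 1 μg/ml. In both courses its late values were below both early ones, by 0.77 and 0.73 log2 units on the fitted scale (SE 0.15 each, adjusted p = 0.00085 and 0.0011, limma). B9, a dim member, had 5.09, 4.74, 3.85, 3.31 and 2.95 after 0.1 μg/ml, and 5.75, 4.64, 3.73, 3.10 and 3.94 after 1 μg/ml. Its values did not overlap between the phases at either dose, and it fell by 0.65 and 0.56 log2 units (SE 0.14 each, adjusted p = 0.00215 and 0.00571, limma).

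B2, B7 and B11 were called at 1 dose each. B2 had 24.9 and 32.8 at the early and 20.4 and 15.1 at the late times after 0.1 μg/ml, and 26.9, 24.9, 23.0 and 20.2 after 1 μg/ml. Its fall was called at 0.1 μg/ml (-0.71, SE 0.14, adjusted p = 0.00178, limma) and was -0.26 at 1 μg/ml (adjusted p = 0.282). The difference between the doses, 0.44 log2 units (SE 0.20), had an adjusted p of 0.341 in limma. No member was called for a difference between the doses, where 0.0633% of all rows were, and B2 was the 1 member with an unadjusted p under 0.05, as had 13.2% of all rows. B7 fell by 0.45 at 0.1 μg/ml (adjusted p = 0.0253, limma) and had a change of -0.19 at 1 μg/ml (adjusted p = 0.395). B11 fell by 0.46 at 1 μg/ml (adjusted p = 0.0303, limma) and had a change of -0.34 at 0.1 μg/ml (adjusted p = 0.16). The remaining 7 members had changes between -0.37 and 0.19 log2 units in these 2 courses, none called. B13 was the one member with late values above early ones at 1 μg/ml, at 4.12, 4.29, 4.23, 4.51 and 5.10 over the 5 times.

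**Figure D2:**
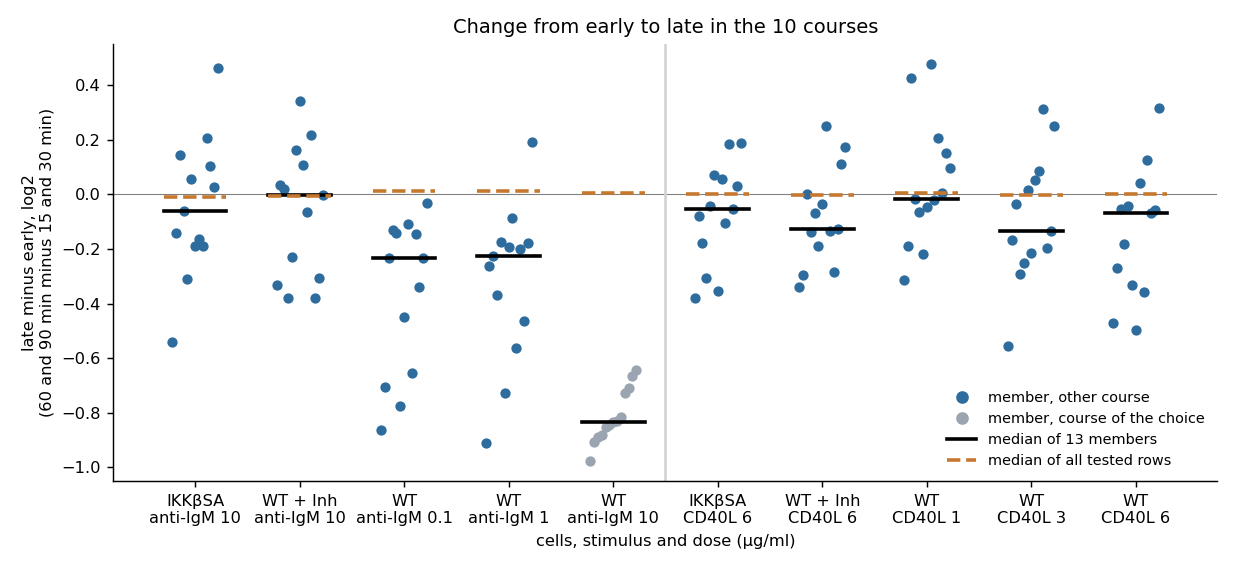
Late minus early log2 intensity (vertical axis, mean of 60 and 90 min minus mean of 15 and 30 min) in the 10 courses (horizontal axis, doses in μg/ml), with 1 point for each member, a black bar for the median of the 13 members and a dashed orange bar for the median of all 26866 rows. Points of the course that chose the members are grey. Members lay mostly below 0 in WT cells at 0.1 and 1 μg/ml anti-IgM (medians -0.23 and -0.22) and on both sides of 0 in IKKβSA and WT + Inh cells given 10 μg/ml.

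In IKKβSA and WT + Inh cells given 10 μg/ml anti-IgM, the dose of the rule, the members had no common direction. In each of these courses 7 of 13 had late values below early ones, against 51.9% and 51.7% of all rows. The median change was -0.06 log2 units for IKKβSA and -0.0035 for WT + Inh, against -0.0091 and -0.0074 for all rows. In IKKβSA cells B1 was called lower, 1 member where 2.08% of all rows were, and B13 was called higher, where 6.11% of all rows were. In WT + Inh cells none was called by limma, where 2.50% of all rows were called lower, while 4 members were lower with an unadjusted p under 0.05 (B1, B4, B5 and B11), as were 9.53% of all rows. In IKKβSA cells the B1 call was lost without the 15, the 30 or the 90 min columns, and the B13 call without the 15, the 60 or the 90 min columns. In WT + Inh cells B1 was called lower without the 60 min columns.

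In IKKβSA cells B1 had intensities of 57.0, 65.2, 63.1, 52.3 and 33.7 at 15, 30, 45, 60 and 90 min, while WT + Inh cells had 56.7, 54.7, 57.2, 47.5 and 41.2. In both courses the 45 min value was near the early ones, and the lowest value was that at 90 min. The fall of B1 was 0.54 log2 units in IKKβSA cells (SE 0.15, adjusted p = 0.0249, limma), and its change in WT + Inh cells was -0.33 (SE 0.15, adjusted p = 0.187). For B6 the IKKβSA course had 14.3, 19.4, 22.7, 19.5 and 15.4, and the WT + Inh course had 17.3, 23.7, 22.8, 23.0 and 22.4. In both, its early and late values overlapped. B13 had 4.21, 5.32, 6.20, 6.54 and 6.52 in IKKβSA cells, an increase by 0.46 log2 units from the early to the late times (SE 0.14, adjusted p = 0.03, limma). The members also differed in sign between these courses: B7 had 21.3, 23.1, 23.1, 20.7 and 18.3 in IKKβSA cells, with a late minus early difference of -0.19 (adjusted p = 0.399). In WT + Inh cells it had 14.4, 16.1, 15.2, 18.9 and 19.7, with a difference of 0.34 (adjusted p = 0.0903).

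The difference in fall between IKKβSA and WT + Inh cells was called for no member, where 0.0633% of all rows were called. It had an unadjusted p under 0.05 in 3 members in limma (B7 at -0.53, B11 at 0.48 and B13 at 0.47 log2 units) and in 5.85% of all rows. The change from own 0 min to the early times, which the rule did not use in these cells, was called in no member after anti-IgM, where 0.119% of all rows in IKKβSA and 0.0819% in WT + Inh cells were called higher. Unadjusted, 2 members in IKKβSA and 1 in WT + Inh cells were higher at a limma p under 0.05, as were 3.43% and 5.19% of all rows. Early values were above 0 min in 6 members in IKKβSA and 8 in WT + Inh cells, against 47.5% and 49.3% of all rows. The net change to the late times was not called in any member in either course, where 2.50% and 3.06% of all rows were called lower. Unadjusted, limma gave 0 members lower in both, against 9.54% and 9.08% of all rows. Late values were below 0 min in 7 members in each course, against 53.8% and 50.6% of all rows. B6 ended above it in both, by 0.43 and 0.37 log2 units (limma, unadjusted p = 0.021 and 0.046, adjusted p = 0.14 and 0.25).

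A test of the difference in fall between these 2 courses and the lower WT doses was added after the values were seen. It set the mean of IKKβSA and WT + Inh cells at 10 μg/ml against the mean of WT cells at 0.1 and 1 μg/ml, so that dose and cell condition cannot be told apart. Of the 13 estimates, 12 were above 0, which is a smaller fall in IKKβSA and WT + Inh cells, with a median of 0.31 log2 units against -0.0076 for all rows. The share of all rows above 0 was not computed. The difference was called in 3 members (B6, B9 and B7), where 7.81% of all rows were called in either direction. It was 0.86 in B6 (SE 0.15, adjusted p = 0.000673, limma), 0.48 in B9 (SE 0.14, adjusted p = 0.0275) and 0.40 in B7 (SE 0.13, adjusted p = 0.0492). B1 and B2 had estimates of 0.45 and 0.43 (adjusted p = 0.0641 and 0.0578). B6 stayed called when any 1 of the early or late times was left out. B7 did not in any of these 4 fits, and B9 did without the 30 min columns only. B1 was called without the 90 min columns, at 0.78 log2 units. The shares of all rows called higher in these 4 fits are not given here.

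**Figure D3:**
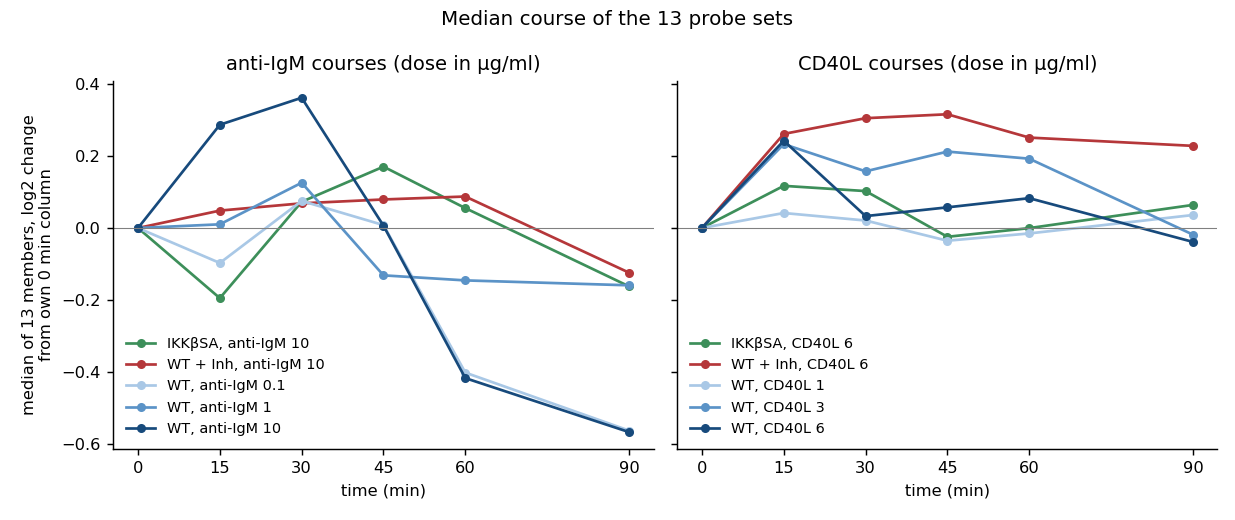
Median log2 change of the 13 members from the 0 min column of their own cell condition (vertical axis) against time (horizontal axis, min), in the 5 anti-IgM courses (left) and the 5 CD40L courses (right), with doses in μg/ml. After anti-IgM the curves of IKKβSA and WT + Inh cells ended at -0.16 and -0.12 at 90 min, and those of WT cells at -0.56, -0.16 and -0.57 at 0.1, 1 and 10 μg/ml, of which the 10 μg/ml course chose the members. All WT curves subtract the WT 0 min column, which the rule used too, so they are a description.

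Over the 4 BCR courses other than that of the rule, the mean fall was called in 7 members (B1, B2, B4, B5, B6, B9 and B11), where 8.27% of all rows were called lower. The median over the members was -0.21 log2 units, against -0.0043 for all rows. The error of a mean fall over courses, here and for CD40L, came from differences between times within a phase. It did not include the spread between the averaged courses. B1 had the largest mean fall, 0.66 log2 units (SE 0.08, adjusted p = 9.99e-08, limma), before B9 with 0.37 (SE 0.07, adjusted p = 0.000112) and B6 with 0.32 (SE 0.07, adjusted p = 0.00131). In B6 this mean covers changes of -0.73 and -0.77 in WT cells at 1 and 0.1 μg/ml. Its changes were 0.06 in IKKβSA and 0.16 in WT + Inh cells. Late values of B6 were thus below early ones in 2 of the 4 courses. The B6 call was lost without the 30 or the 90 min columns. B2 and B11 fell by 0.27 each, with late values below early ones in 3 of the 4 courses. B4 and B5 were called through small changes of the same sign in all 4 courses, with means of -0.23 and -0.21. The smallest mean changes were those of B8, B3, B10 and B7, between -0.12 and 0.02, and B13 had 0.15 (adjusted p = 0.111). Without the 90 min columns 2 members stayed called (B1 and B9), where 3.23% of all rows were, and 5 did without the 15 or without the 30 min columns, where 5.34% and 9.13% of all rows were.

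**Figure D4:**
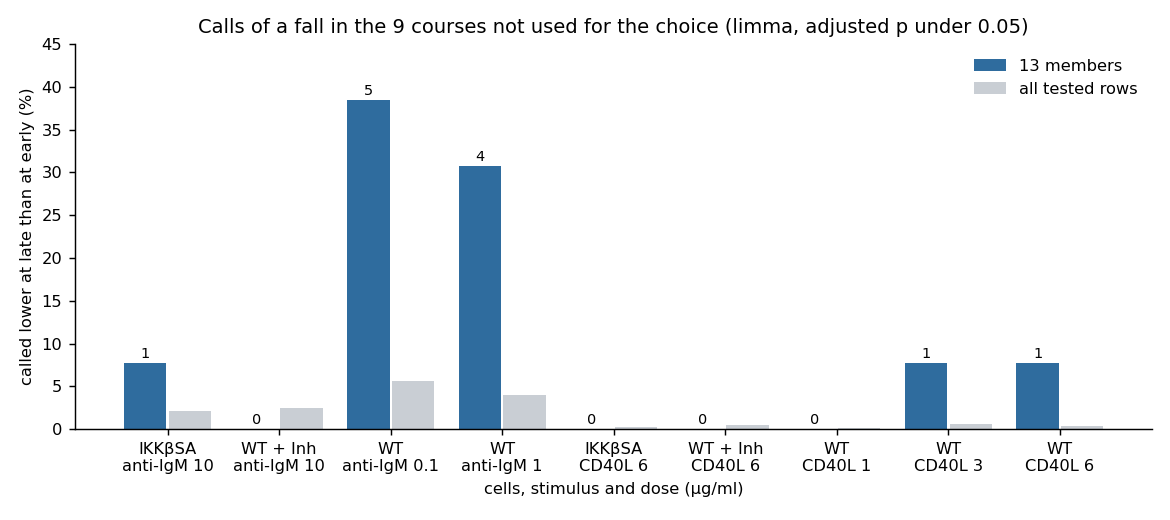
Percent of the 13 members (blue) and of all 26866 rows (grey) called lower at the late than at the early times (vertical axis, limma, adjusted p under 0.05) in the 9 courses that did not choose the members (horizontal axis, doses in μg/ml). The number of members is printed on each blue bar. The counts were highest in WT cells, with 5 members at 0.1 and 4 at 1 μg/ml anti-IgM.

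After CD40L few falls were called. No member met both thresholds there, nor after anti-IgM in IKKβSA cells, WT + Inh cells or, at 0.1 μg/ml, WT cells. Late values were below early ones in 8 members in IKKβSA and 9 in WT + Inh cells at 6 μg/ml, against 48.9% and 50.7% of all rows. The count was 7, 8 and 10 in WT cells at 1, 3 and 6 μg/ml, against 48.5%, 50.4% and 49.9% of all rows. No fall was called by limma in IKKβSA cells (0.268% of all rows), in WT + Inh cells (0.558%) or in WT cells at 1 μg/ml (0.0931%), where 2, 2 and 0 members with late below early had an unadjusted p under 0.05, as had 4.96%, 6.21% and 4.46% of all rows. At 3 μg/ml 1 member was called (B1, 0.573% of all rows), and at 6 μg/ml 1 (B7, 0.439%). B1 had 65.5, 63.5, 61.1, 48.05 and 40.2 over the 5 times at 3 μg/ml, and it fell by 0.55 log2 units (adjusted p = 0.0489, limma). B7 had 17.2, 16.3, 13.5, 13.4 and 10.5 at 6 μg/ml, and it fell by 0.50 (adjusted p = 0.0451, limma). Both calls were lost after centring of the columns and without the 15, the 30 or the 90 min columns. Without the 60 min columns B1 was called at 6 μg/ml as well. The fall at 6 minus that at 1 μg/ml was called for no member (0.0261% of all rows), and by B7 alone at an unadjusted limma p under 0.05 (6.87% of all rows). The estimate was below 0 in 11 of 13, with a median of -0.16 log2 units against -0.01 for all rows. The share of all rows below 0 was not computed.

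Over the 5 CD40 courses the mean fall was called in 3 members, B1 (-0.41, adjusted p = 8.92e-05), B7 (-0.23, adjusted p = 0.00532) and B2 (-0.20, adjusted p = 0.0338, limma), where 4.66% of all rows were called lower. B13 was called higher late (0.20, adjusted p = 0.0219), where 8.50% of all rows were, a call that was lost without the 15, the 30 or the 90 min columns. B1 alone stayed called lower without the 15 or without the 90 min columns. The mean fall of the other BCR courses minus that of the CD40 courses was below 0 in 12 of 13 members, with a median of -0.12 against 0.0019 for all rows, but no member was called by limma, where 5.82% of all rows were. For this difference too, the share of all rows below 0 was not computed. B9 (-0.26, adjusted p = 0.0934) and B1 (-0.25, adjusted p = 0.194) had an unadjusted p under 0.05 in limma, as had 15.9% of all rows. Across all 9 other courses, late values were below early ones in every course for 3 members (B1, B4 and B5), and for 2.65% of all rows.

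The early rise in WT + Inh cells given CD40L was not tested against that in other courses. In WT cells at 1, 3 and 6 μg/ml CD40L, 8, 10 and 9 members had early values above 0 min. Of all rows, 50.9%, 51.5% and 51.9% did. Those WT counts share their 0 min column with the rule. All 13 members lay above the WT + Inh 0 min column at the early times (53.5% of all rows did), with a median of 0.31 log2 units against 0.01 for all rows. B10 was the 1 member called higher (0.96, SE 0.22, adjusted p = 0.0246, limma), where 0.529% of all rows were, and 4 had an unadjusted p under 0.05 (7.03% of all rows). The intensity of B10 was 3.91 at 0 min and 7.04, 8.26, 7.20, 7.11 and 5.53 after CD40L in WT + Inh cells. The late average lay below 0 min in 2 members (47.7% of all rows), B2 at -0.28 and B1 at -0.06 log2 units. The late times were called higher than 0 min in B3 (0.80, adjusted p = 0.0209, limma) and B12 (0.75, adjusted p = 0.015), where 3.21% of all rows were. No member was called lower, where 2.64% of all rows were called lower and 8.97% were lower at an unadjusted p under 0.05. The B10 call was lost without the 30 min columns, and the late calls of B3 and B12 without the 90 min columns. These values rest on 1 WT + Inh column at 0 min, in which B3, B10 and B12 had 14.5, 3.91 and 3.42, against 19.4, 5.05 and 4.35 in unstimulated WT cells. In IKKβSA cells given CD40L no member was called higher (0.0335% of all rows), 1 was higher at an unadjusted limma p under 0.05 (4.59% of all rows), and 9 had early values above 0 min (48.9% of all rows). The net change there was called lower in no member (1.22% of all rows), with 1 at an unadjusted p under 0.05 (7.62%). In B4 the early change there was 0.74 (adjusted p = 0.126).

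**Figure D5:**
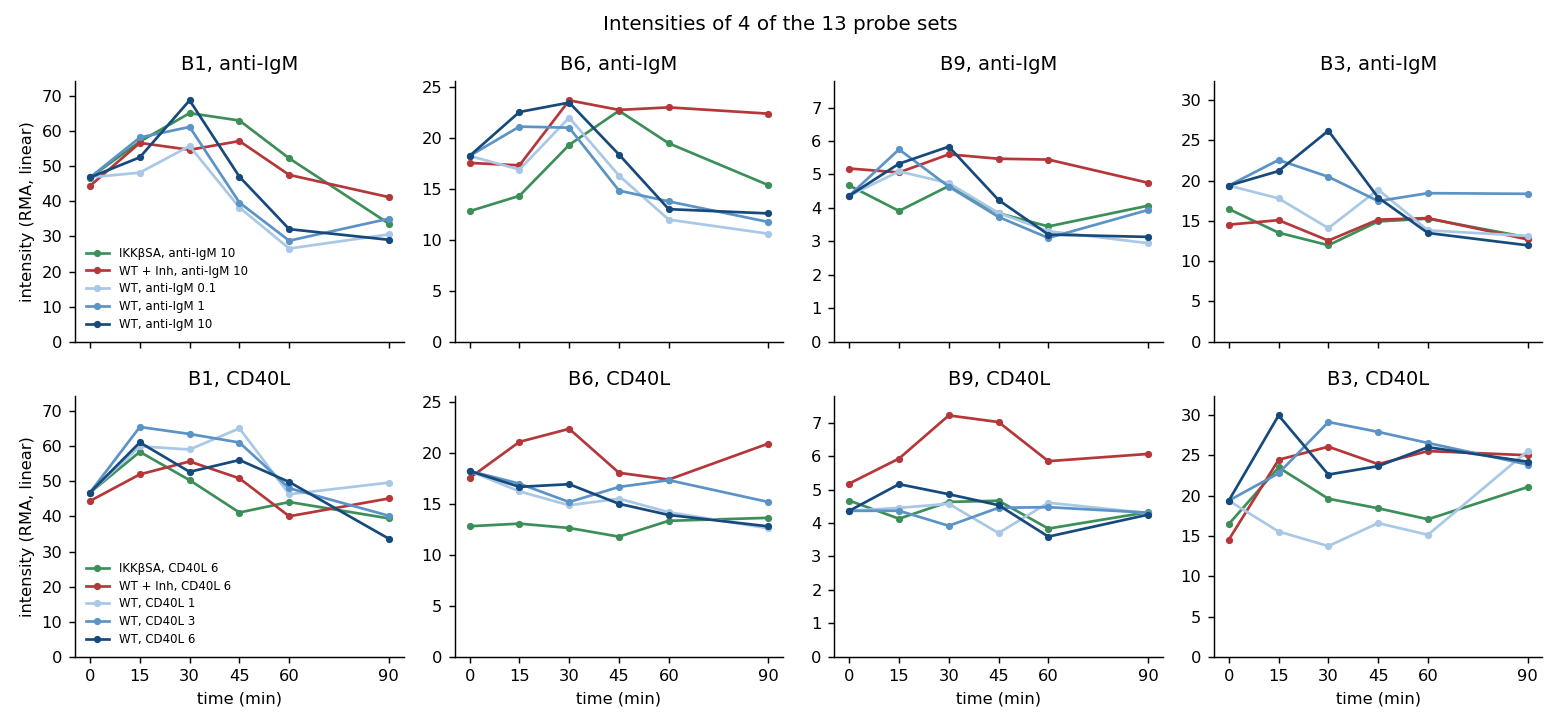
Intensity (vertical axes, linear scale with 0 as the lower end) against time (horizontal axes, min) for B1, B6, B9 and B3 in the anti-IgM courses (upper row) and the CD40L courses (lower row), 1 line for each course, doses in μg/ml. B1, B6 and B9 dropped between 30 and 60 min at every WT anti-IgM dose, while B6 in WT + Inh cells stayed at 22.4 at 90 min.

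Outside the course that chose them, the members did not move as 1 group. Over the 48 columns of the fit the 78 pairs of members had a median correlation of log2 intensity of 0.22 and a mean of 0.22, with 62 pairs above 0, and the mean over all pairs of tested rows was 0.0026. The points of these correlations share cell conditions, 0 min columns and courses. The closest group, singled out after its values were seen, was B3, B8, B10 and B12, with pairwise r between 0.71 and 0.85. B1 and B2 had r = 0.57, below B5 with B9 (0.67), B6 with B9 (0.60) and B3 with B4 (0.60). With the mean of each cell condition taken off, the mean r was 0.27, with 65 pairs above 0, against 0.0020 for all rows. The group of 4 then had r between 0.70 and 0.85. B1 with B2 had 0.75, B2 with B7 had 0.67 (0.10 before), and B5 with B9 had 0.34.

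Of B3, B8, B10 and B12, the brightest was B3, which lay between 11.98 and 15.3 in the IKKβSA and WT + Inh anti-IgM courses, and between 22.6 and 30.0 at 3 and 6 μg/ml CD40L in WT cells. It kept a level of 23.9 to 26.1 through the WT + Inh CD40L course. At 1 μg/ml CD40L B3 had 15.5, 13.7, 16.6, 15.1 and 25.5 over the 5 times, and B8 had 3.97, 3.38, 3.41, 3.67 and 7.10. Each of the 4 had its highest value of that course at 90 min, a column that also entered the correlations that singled them out. The share of all rows highest at that time was not computed. None of the 4 was called lower at the late times in any of the 9 other courses. Their largest value in the course that chose them, 26.2, 5.26, 6.58 and 5.53, was exceeded in 4, 12, 8 and 9 of the other 48 columns. Over all members, the highest of the 53 columns lay in the course of the rule for 2 (B1 and B11), and the lowest for 7. The rule favours extremes in that course by construction, and the share of all rows was not computed.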

How the data were processed

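DT40 RNA was hybridised to Affymetrix chicken arrays for 10 stimulation courses and 3 unstimulated conditions, 53 columns in all (31 WT, 11 WT + Inh, 11 IKKβSA). The authors deposited intensity values on a linear scale, made with RMA per the submitters' processing notes, with 2 biological replicates combined per column, by a method not given in these sources. The number of columns limits the precision. Values were taken to log2 with no pseudocount, and the 26866 of 38361 rows with a mean above 1.05 were tested.

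R 4.3.3 and limma 3.58.1 (lmFit, contrasts.fit, eBayes with trend) were used on 48 columns, with 1 mean per course and phase (15 and 30, 45, 60 and 90 min), 30 parameters in all. The scripts were tested on simulated data. Rows with values in the text were those with the largest drop in the course of the rule, the largest and smallest mean falls over the other BCR and CD40 courses, the highest levels, and those beside the thresholds. All other rows singled out were chosen after their values were seen. The members and these rules were chosen with earlier results of these data known.

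Row IDs were not used for names. Rows with the IDs of GAPDH and RPS6 had intensities between 1.60 and 3.43 in all columns, close to the column medians. Among rows above an intensity of 10, 2435 pairs of 1 symbol had a median correlation of 0.30, against 0.16 for 5781 neighbouring pairs of different symbols. Alternatives were other filters on dim rows, centring of columns, 10 added before log2, a spline of time, other member thresholds, and leaving out each early or late time in turn. Whether columns of 1 time or stimulus share a preparation or an array run was not tested.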

Additional observations from a re-analysis of the deposited data

Results flagged for a closer look

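The fall from the early to the late times differed between IKKβSA and WT + Inh cells at 10 μg/ml anti-IgM and WT cells at 0.1 and 1 μg/ml in 3 of the 13 members, by a limma test of the difference itself that was added after the values were seen and that called 7.81% of all rows in either direction. The difference was 0.861 log2 units in B6, 0.482 in B9 and 0.399 in B7, each a smaller fall in IKKβSA and WT + Inh cells. When each early or late time was left out in turn, B6 stayed called in all 4 fits, B9 in 1 (without the 30 min columns) and B7 in none. B1, not called in the main fit, was called without the 90 min columns. Dose and cell condition cannot be told apart in this difference.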

How the results depend on the processing

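Of 235 counts recomputed under the alternatives, 188 equalled the main count or stayed within 1.5 times of it, and 47 moved. A count of 0 that stayed 0 was taken as equal, and most of the main counts were 0, so the tally says little about the calls that were made. The comparison was of counts alone, so a reversal of sign was not assessed. The number of members was 5 with only rows above an intensity of 10, 1 with 10 added before log2 and 1 with stricter thresholds (0.35 and -0.5). It was 17 after centring of the columns, 8 of them shared with the 13. Calls of a fall at 6 and at 3 μg/ml CD40L in WT cells were 0 each without a filter on dim rows and after centring. There were 2 at 6 μg/ml with a spline of time. Of all rows, 0.266% and 0.341% were called lower without the filter, 0.365% and 0.573% after centring, and 1.19% at 6 μg/ml with the spline. At 1 μg/ml anti-IgM 2 members were called among rows above an intensity of 10, where 5 members remain. Of those rows 10.2% were called lower, against 3.97% of all rows in the main fit. The early rise in WT + Inh cells given CD40L was called in 2 members without a filter, in 0 among bright rows and in 3 with the spline. The shares of all rows called higher in these fits are not given here. With the spline B6 was also called higher late than at 0 min in IKKβSA and in WT + Inh cells given anti-IgM. B7 was called higher at the late than at the early times with the spline in WT + Inh cells given anti-IgM. Neither direction was among the counts, and the shares of all rows called higher there were not computed. The mean fall over the other BCR courses was called in 3 members among bright rows, and in the 1 member of the stricter choice, as was that over the CD40 courses. Among bright rows 17.1% and 11.5% were called lower for these means, against 8.27% and 4.66% of all rows in the main fit. The stricter choice used the main fit. With the 17 members chosen after centring, tested in the main fit, 5 were called for the mean CD40 fall. There 4.66% of all rows were called lower. In that set 2 were called for BCR minus CD40 and 6 for the difference of IKKβSA and WT + Inh from the lower WT doses. Of all rows, 5.82% and 7.81% were called for these differences in either direction. The difference from the lower WT doses was called in 5 after centring, in 5 with the spline and in 0 with the stricter choice. For it, the shares of all rows called after centring and with the spline are not given here. BCR minus CD40 was called in 1 with the spline, where 3.56% of all rows were called lower. The cause of these shifts was not tested, beyond the smaller or other set of rows where the alternative changes it.

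Leaving out each early or late time in turn gave 2 to 4 calls at 1 and 1 to 5 at 0.1 μg/ml anti-IgM in WT cells, 0 to 1 each in IKKβSA and WT + Inh cells given anti-IgM, 0 to 2 at 6 and 0 to 1 at 3 μg/ml CD40L in WT cells, and 0 to 2 for the early rise in WT + Inh cells given CD40L. The same fits gave 2 to 7 calls for the mean fall over the other BCR courses and 1 to 4 over the CD40 courses. Of all rows, 3.23% to 9.13% and 0.904% to 4.73% were called lower. BCR minus CD40 had 0 to 2 calls, where 0.584% to 2.43% of all rows were called lower. IKKβSA and WT + Inh against the lower WT doses had 1 to 2 calls, with the share of all rows called higher not given here. No paired analysis was possible because each condition has 1 column and no replicate numbers. Most members were dim, and their median residual SD of 0.16 log2 units was above the 0.11 of all tested rows, which limits what a single course can show.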
